A study of Mus musculus with 6 samples.

Results

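A set of 50 genes of the NF-kappaB pathway, with its feedback inhibitors and targets, was read in macrophages sorted from mouse tumours, out of 21878 genes in the deposited table. The rule for the set lists genes by name, with no measured value in it, and all 50 had enough reads to be tested, among 12136 tested genes. It was divided by role into 5 subunits, 6 IkB family genes, 9 kinases and their direct partners, 6 feedback inhibitors, 14 genes of the ligand, receptors and adaptors, 7 induced surface molecules and 3 other induced targets.

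NF-kappaB is a family of transcription factors that carries signals from Toll-like, interleukin-1 and tumour necrosis factor receptors to the genes of inflammation. In resting cells the subunits are held in the cytoplasm by IkB proteins. Receptor adaptors activate the IKK kinases, the IkB proteins are degraded, and the freed subunits enter the nucleus and induce cytokines, adhesion and costimulatory molecules, and also their own inhibitors, which then limit the response. In macrophages this pathway sets much of the inflammatory state.

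The macrophages came from MC38 tumours, a mouse colon carcinoma line, collected by fluorescence-activated sorting 14 days after injection. The 3 KO libraries (TRMT61A-KO) came from mice with floxed Trmt61a alleles and LysmCre, a Cre recombinase driven from the lysozyme M locus, which is active in myeloid cells and not in macrophages alone. The 3 WT libraries (TRMT61A-WT) came from mice that carried the same floxed alleles without Cre, so both groups bore the tumour and the floxed alleles. Trmt61a encodes the catalytic subunit of the tRNA m1A methyltransferase, and the study asks what this modification does in tumour macrophages. For each library, the mice behind it (their number, age and sex) and the sorting gate were not stated, and p-values then reflect only how much these samples vary, part of which may be technical.

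The libraries held 18839026 to 20313597 counts. Trmt61a itself had 138 to 157 counts in the WT libraries and 33 to 50 in the KO libraries, so every library followed its label. Macrophage genes such as Adgre1, Csf1r and C1qa were abundant in all 6 libraries, and 11 of them summed to 14830 to 16237 CPM (read counts scaled to a common library size) in WT and 14109 to 16127 CPM in KO (exact permutation p = 0.6). Singly, 6 had negative and 5 positive log2 fold changes of KO over WT, from -0.25 to 0.43. With edgeR at an unadjusted p under 0.05, 2 were lower and 1 higher, where 3.06% and 3.86% of all tested genes were. The KO libraries all lay below the WT libraries in 3 of the 11 and above them in 1, where 6.3% and 6.11% of all tested genes did. KO replicate 2 stood apart on the first principal component, at 29.4 against -18 to 5.26 for the other libraries.

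No gene of the set passed the edgeR quasi-likelihood test at an adjusted p under 0.05, in either direction. In this fit 0.0165% of all tested genes were called lower and 0% higher in KO. At an unadjusted p under 0.05, 20 of the 50 genes (40%) were lower and 1, Cd80, was higher, where 3.06% and 3.86% of all tested genes were. DESeq2, run as an alternative, called 7 of the 50 lower and 0 higher, where it called 0.184% and 0.07% of the genes it tested. Limma-voom called 0 of the 50, where it called 0.00824% of all tested genes lower and 0% higher. The 7 genes were Vcam1, Tnip3, F3, Slc2a6, Ccrl2, Cd83 and Birc3. In GENCODE M21 (GRCm38) Vcam1 lies at chr3:116109949-116129688 and F3 at chr3:121723537-121735048. Tnip3 lies at chr6:65525313-65634040, Slc2a6 at chr2:27021363-27027998 and Cd83 at chr13:43784775-43803132. Ccrl2 and Birc3 lie on chromosome 9, at chr9:111054486-111057519 and chr9:7848699-7873186.

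The log2 fold change of KO over WT was negative in 37 of the 50 genes (74%), against 50.2% of all tested genes, and positive in 13, against 49.8%. The median was -0.21 over the set and 0.00 over all tested genes. By role, the median was -0.67 for induced surface molecules, -0.41 for the other induced targets, -0.34 for the IkB family, -0.32 for feedback inhibitors, -0.21 for subunits, -0.15 for the ligand, receptors and adaptors, and 0.04 for kinases and their partners. Without WT replicate 1 the medians were -0.48, -0.25, -0.21, -0.13, -0.17, -0.07 and 0.03 in the same order, so the IkB family, the feedback inhibitors, the ligand group and the other targets moved by over 1.5 times and the order changed. Differences between the role groups were not tested. In RNA from a mass of sorted cells, fewer cells of a kind and less RNA per cell cannot be told apart.

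**Figure D1:**
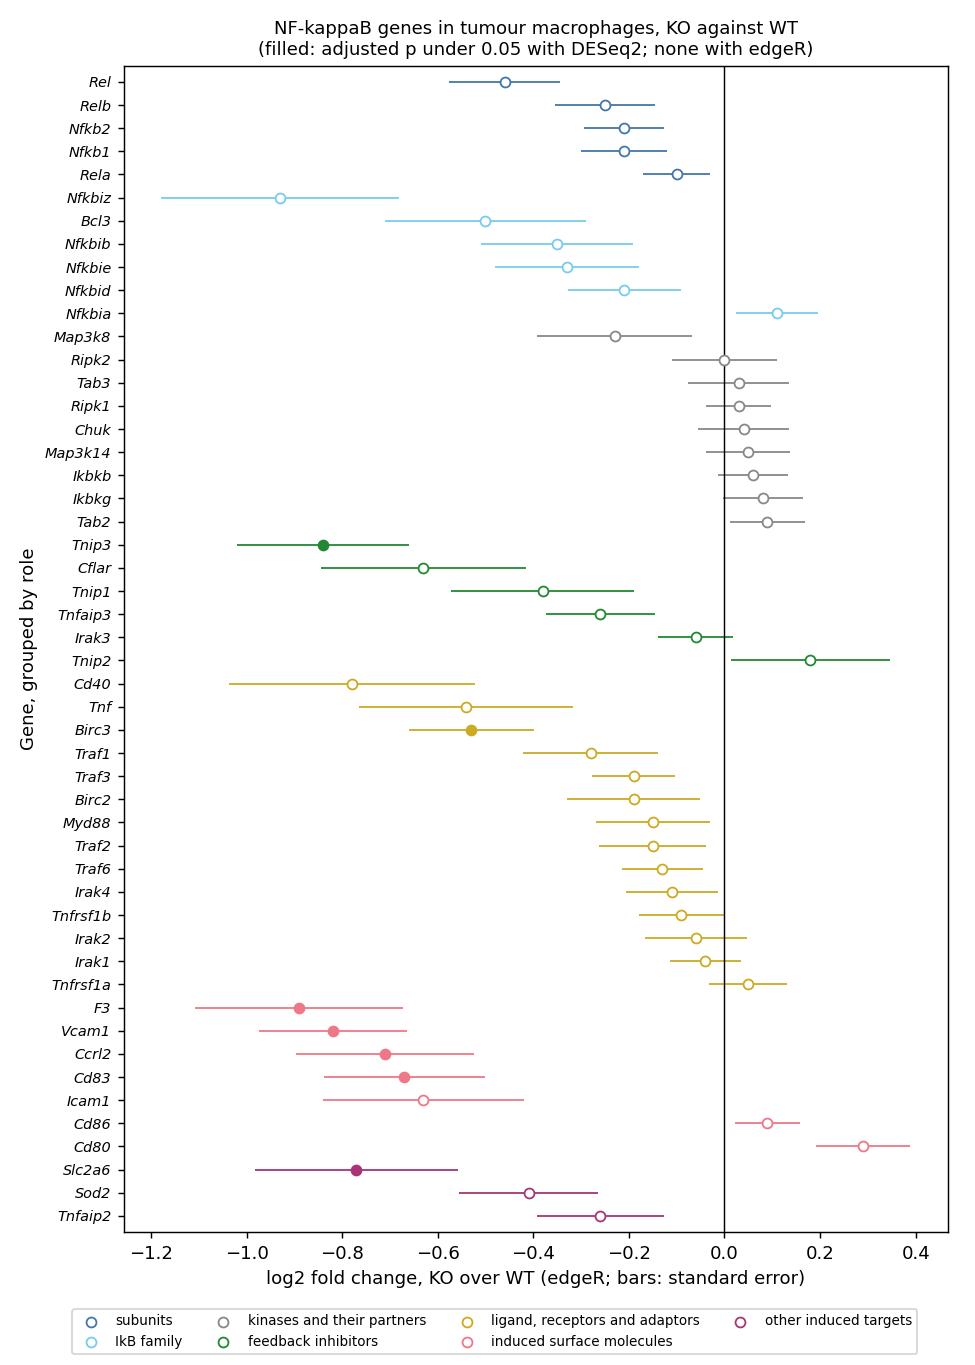
Each point is the edgeR log2 fold change of KO over WT (horizontal axis) of a gene (vertical axis, grouped by role), and each bar its standard error. Filled points passed DESeq2 at an adjusted p under 0.05. The induced surface molecules reach down to -0.89, while 8 of the 9 kinases and partners lie from 0.00 to 0.09.

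The subunits form the DNA-binding dimers. Nfkb1 and Nfkb2 encode precursors that are processed into subunits without an activation domain, while Rela, Relb and Rel carry one. All 5 had negative log2 fold changes, and 4 of 5 were lower at an unadjusted p under 0.05. Rel, the subunit known for its role in lymphoid and myeloid activation, was at 153, 129.6 and 132 CPM in the WT libraries and at 92.6, 119 and 89.7 CPM in the KO libraries. The groups did not overlap, and KO replicate 2 lay nearest to WT. The gene had a log2 fold change of -0.46 (SE 0.116; edgeR adjusted p = 0.694, DESeq2 adjusted p = 0.0808). Without KO replicate 2 the value was -0.60, and DESeq2 then called Rel lower.

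The other subunits differed less. Relb, the partner of Nfkb2 in the noncanonical branch, stood at 75.5, 69.2 and 72.9 CPM (WT) against 54.1, 71.4 and 57.0 CPM (KO). Its log2 fold change of -0.25 (SE 0.104) became -0.39 without KO replicate 2, the only KO library within the WT range. Nfkb2 had 246, 218 and 240.3 CPM in the WT libraries, and 194, 224 and 192 CPM in the KO libraries, again with KO replicate 2 inside the WT range (log2 -0.21, SE 0.0844, and -0.28 without that library). Nfkb1 had the same value of -0.21, and Rela, the main activating subunit of the canonical branch, had the smallest difference of the 5 at -0.10 (SE 0.0700). Per kilobase of exon, the WT levels ran from 66.0 ± 5.28 CPM for Nfkb1 through 55.6 ± 3.56 for Nfkb2, 54.7 ± 1.87 for Rela and 32.8 ± 1.44 for Relb to 18.5 ± 1.70 for Rel (SD, n = 3). Nfkb2 and Rela did not differ beyond their spread on that scale.

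Of the IkB family, 5 of 6 genes had negative log2 fold changes, and the exception was Nfkbia. Nfkbia encodes IkB-alpha, the classical cytoplasmic inhibitor and an early target of the pathway. It registered 507, 555 and 534 CPM under WT versus 516, 588 and 626 CPM under KO, with overlapping groups (log2 0.11, SE 0.0857, edgeR adjusted p = 0.795). Its value stayed positive without each library in turn, from 0.05 to 0.19. The other cytoplasmic inhibitors, Nfkbib and Nfkbie, had log2 fold changes of -0.35 (SE 0.158) and -0.33 (SE 0.151). The value of Nfkbib was -0.20 without WT replicate 1 and -0.51 without KO replicate 2. Nfkbie measured 331, 266 and 294 CPM across WT and 192, 292 and 222 CPM across KO. KO replicate 2 lay inside the WT range, and the log2 fold change of Nfkbie was -0.52 without it, where DESeq2 called the gene lower, and -0.21 without KO replicate 1.

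The nuclear IkB proteins act on chromatin-bound subunits rather than holding them in the cytoplasm. Nfkbiz, which encodes IkB-zeta, a coactivator of secondary response genes, stood at 721, 334 and 445 CPM (WT) against 246, 287 and 252 CPM (KO). The groups did not overlap, the KO mean was 52.4% of the WT mean, and WT replicate 1 stood well above all others. That is a log2 fold change of -0.93 (SE 0.248, edgeR adjusted p = 0.701, DESeq2 adjusted p = 0.387) and of -0.57 without WT replicate 1. DESeq2 did not call Nfkbiz with all libraries, but called it lower without WT replicate 1 and without WT replicate 2. Bcl3, a partner of the subunits without an activation domain, had 69.3, 39.4 and 43.9 CPM in the WT libraries, and 31.8, 41.4 and 34.5 CPM in the KO libraries. Those groups overlapped, and its value of -0.50 (SE 0.211) became -0.21 without WT replicate 1. Nfkbid, the third nuclear member, was at -0.21 (SE 0.118), at -0.10 without KO replicate 1 and at -0.35 without KO replicate 2.

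Feedback inhibitors restrain signalling from the receptors, several of them by binding or editing the ubiquitin chains that carry it. Tnip3, an ubiquitin-binding partner of the enzyme made by Tnfaip3, registered 164, 136 and 128 CPM under WT versus 57.7, 94.8 and 86.3 CPM under KO. The groups did not overlap, and the KO mean of 79.6 ± 19.4 CPM was 55.7% of the WT mean of 143 ± 19.1 CPM (SD, n = 3 each). The log2 fold change was -0.84 (SE 0.181), with an adjusted p of 0.694 by edgeR and 4.86e-04 by DESeq2. It ranged from -0.99 to -0.66 when each library was left out, and DESeq2 called it in all 6 of those fits.

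The remaining inhibitors were less separated. Tnfaip3, a ubiquitin-editing enzyme and the most abundant of the group per kilobase of exon (175 ± 22.1 CPM in WT, SD, n = 3), measured 921, 748 and 743 CPM across WT and 596, 762 and 651 CPM across KO. KO replicate 2 lay inside the WT range (log2 -0.26, SE 0.114), and the value was -0.15 without WT replicate 1 and -0.37 without KO replicate 2. Cflar encodes c-FLIP, which blocks caspase-8 and protects cells during receptor signalling. It stood at 259, 141 and 172 CPM (WT) against 119, 143 and 108 CPM (KO), so the groups overlapped slightly (log2 -0.63, SE 0.214). Without WT replicate 1 its value was -0.34. Tnip1 was at -0.38 (SE 0.191) and at -0.10 without WT replicate 1. Tnip2 was at 0.18 (SE 0.167) and turned to -0.05 without KO replicate 2, which held 91.2 CPM while the rest held 55.9 to 66.8 CPM. Irak3, a pseudokinase that restrains MyD88 signalling, was at -0.06 (SE 0.0781); its groups did not overlap, but they lay 30.8 to 31.3 CPM in WT and 28.6 to 30.7 CPM in KO.

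Promoter sequence was compared because these inhibitors are themselves targets of the pathway. Windows of 250 bases before the transcription start were read from RefSeq (GRCm38.p6) for 40 of the 50 genes, and searched on both strands for the NF-kappaB consensus motif, counting overlapping matches. The motif was found for 13 of these 40 genes, and for 8.2% of the 27025 genes with a window. The 13 were Nfkb2, Rel, Nfkbia, Nfkbie, Nfkbid, Tnfaip3, Tnip1, Tnip3, Irak1, Traf3, Ccrl2, Tnfaip2 and Sod2. Their median log2 fold change was -0.26 (12 of 13 negative), and it was -0.11 for the 27 genes with a window and no match (18 of 27 negative). The difference was not tested. The 10 genes without a window, with log2 fold changes from -0.93 to 0.09, are in neither median. They are Nfkb1, Relb, Nfkbiz, Ikbkb, Map3k8, Ripk2, Cd40, Cd83, Cd86 and Vcam1. The windows of 4 inhibitor genes are shown, Nfkbia because its log2 fold change was positive and the rest because theirs were negative, chosen after their values were seen. Each line gives the 120 bases before the start in the direction of the gene, with the motif in capitals.
Nfkbia (chr12:55492648-55492767, minus strand): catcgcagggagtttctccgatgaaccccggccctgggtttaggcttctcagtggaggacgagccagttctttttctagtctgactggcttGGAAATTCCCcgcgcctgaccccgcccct
Nfkbie (chr17:45555580-45555699, plus strand): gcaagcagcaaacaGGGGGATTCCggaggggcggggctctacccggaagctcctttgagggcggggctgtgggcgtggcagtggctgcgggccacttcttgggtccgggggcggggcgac
Tnip1 (chr11:54962941-54963060, minus strand): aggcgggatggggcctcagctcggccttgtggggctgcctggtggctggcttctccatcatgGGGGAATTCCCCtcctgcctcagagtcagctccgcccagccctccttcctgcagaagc
Tnip3 (chr6:65590278-65590397, plus strand): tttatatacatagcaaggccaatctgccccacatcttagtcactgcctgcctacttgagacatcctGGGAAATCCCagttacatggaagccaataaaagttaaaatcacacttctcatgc
All 4 windows lie outside annotated exons. The Tnip3 window precedes the RefSeq start and falls in an intron of the longer gene model in GENCODE M21. The match ends 20 bases before the start in Nfkbia, 97 in Nfkbie, 47 in Tnip1 and 45 in Tnip3, and matches at 3 overlapping positions make up the capitals of Tnip1. Nfkbia and Tnip3 therefore both hold a match near the start while their log2 fold changes were 0.11 and -0.84. A match describes letters and shows no binding.

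Kinases and their partners carry the signal from receptors to IkB. None of the 9 was lower or higher at an unadjusted p under 0.05, 8 of 9 log2 fold changes were positive, and their range was -0.23 to 0.09. Ikbkb and Chuk encode the IKK catalytic subunits and Ikbkg their regulatory subunit. Ikbkb averaged 98.9 ± 4.70 CPM over WT and 103 ± 5.68 CPM over KO, and Chuk 55.8 ± 3.35 and 57.2 ± 6.65 CPM (SD, n = 3 each). Ikbkg had 33.1, 36.0 and 36.8 CPM in the WT libraries, and 38.5, 38.5 and 34.6 CPM in the KO libraries (log2 0.08, SE 0.0835, and 0.03 without WT replicate 1). For these 3 genes the difference was no larger than the spread within the groups.

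Tab2 and Tab3 link the kinase TAK1 to ubiquitin chains. Tab2 registered 141, 142 and 147 CPM under WT versus 164, 155 and 138 CPM under KO, with overlapping groups (log2 0.09, SE 0.0782, and 0.04 without KO replicate 1). Tab3 was at 0.03 (SE 0.105) and was the lowest of the 50 genes per kilobase of exon, at 2.91 ± 0.186 CPM in WT (SD, n = 3). Ripk1, a scaffold at the tumour necrosis factor receptor, and Ripk2, its relative at NOD receptors, were at 0.03 (SE 0.0678) and 0.00 (SE 0.110). Map3k14, the kinase of the noncanonical branch, was at 0.05 (SE 0.0877). Map3k8, a kinase that is held by the Nfkb1 precursor and relays to ERK, was the negative member. It measured 32.2, 21.2 and 21.1 CPM across WT and 20.05, 22.2 and 21.2 CPM across KO, and its log2 fold change of -0.23 (SE 0.161) became 0.00 without WT replicate 1. Without KO replicate 2, 5 of the 9 values were negative, so the sign of this group depends on that library.

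**Figure D2:**
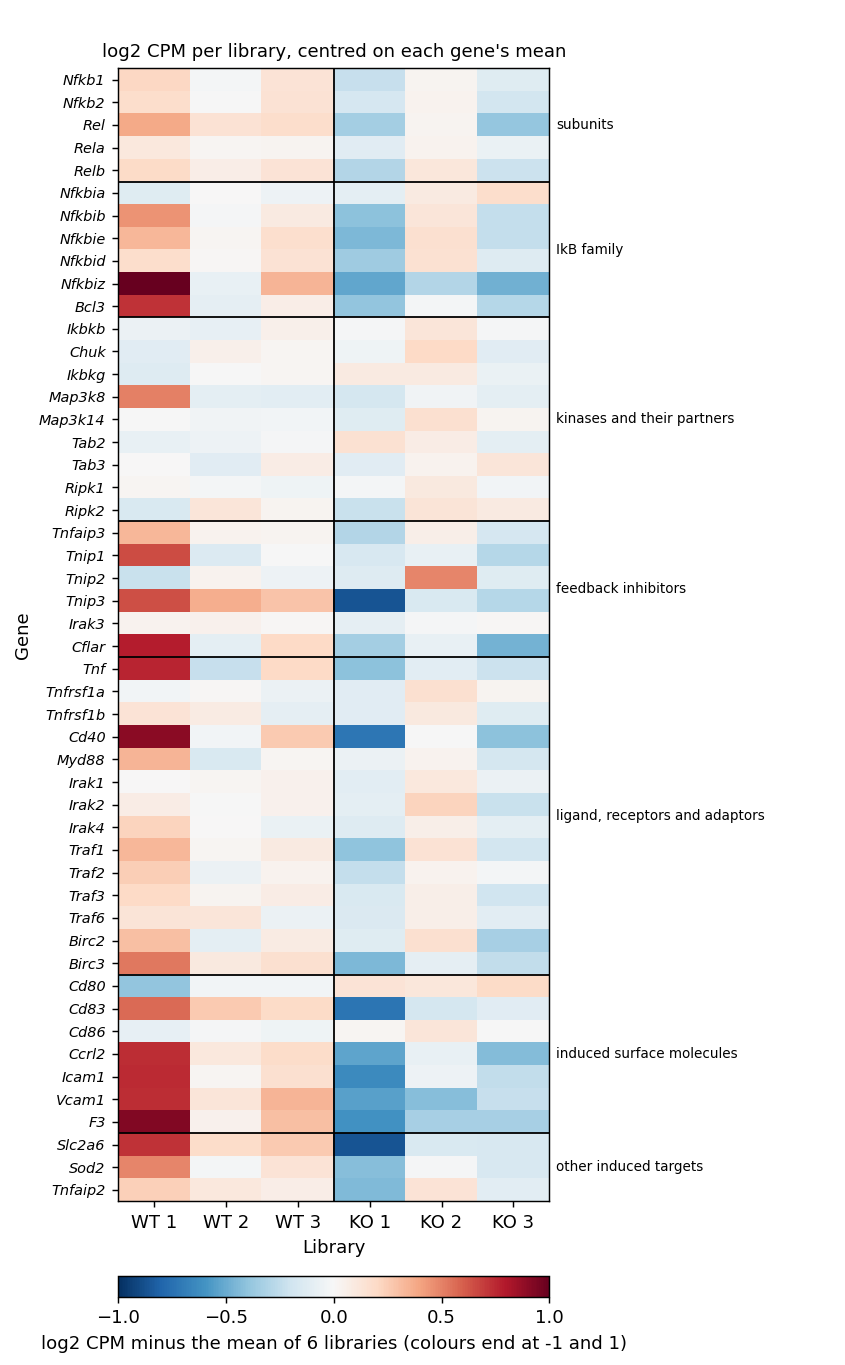
Rows are the 50 genes grouped by role, columns are the 6 libraries, and colour is log2 CPM minus the gene's mean over the libraries. WT replicate 1 is the reddest column and KO replicate 1 the bluest outside the kinases, while KO replicate 2 is close to the WT columns 2 and 3.

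Among ligand, receptors and adaptors, 13 of 14 log2 fold changes were negative. Tnf, the cytokine that both induces and is induced by the pathway, stood at 129, 64.8 and 87.3 CPM (WT) against 57.1, 70.8 and 65.7 CPM (KO). The groups overlapped, and the log2 fold change of -0.54 (SE 0.224) was -0.24 without WT replicate 1. Its receptors Tnfrsf1a and Tnfrsf1b were at 0.05 (SE 0.0814) and -0.09 (SE 0.0896). Per kilobase of exon they were the most abundant of the group, with WT levels of 124 ± 3.25 and 114.5 ± 9.20 CPM whose libraries overlapped (SD, n = 3). Cd40, a costimulatory receptor that feeds the noncanonical branch, had 84.2, 44.1 and 54.0 CPM in the WT libraries, and 27.4, 44.9 and 34.0 CPM in the KO libraries. KO replicate 2 lay just above the lowest WT library (log2 -0.78, SE 0.258), and the value was -0.47 without WT replicate 1 and -0.99 without KO replicate 2.

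Birc3, a ubiquitin ligase at tumour necrosis factor receptors and a target of the pathway, was the member of this group that DESeq2 called. It registered 184, 137 and 142 CPM under WT versus 93.3, 120.0 and 108 CPM under KO. The groups did not overlap, and the KO mean was 69.3% of the WT mean. The log2 fold change was -0.53 (SE 0.131), with an adjusted p of 0.694 by edgeR and 0.0372 by DESeq2. It ranged from -0.62 to -0.38 when each library was left out. The DESeq2 call held when the left-out library was replicate 2 of either genotype. Birc3 was not called when any other single library was left out. Its paralog Birc2 was at -0.19 (SE 0.139; -0.07 without KO replicate 3), with 43.8, 33.2 and 37.6 CPM in WT and 32.7, 39.7 and 28.3 CPM in KO. The difference between the paralogs was not tested.

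The adaptors differed little. Myd88, the adaptor of Toll-like and interleukin-1 receptors, was at -0.15 (SE 0.120) and 0.00 without WT replicate 1. Its kinases Irak4, Irak1 and Irak2 were at -0.11, -0.04 and -0.06, each with overlapping groups. Of the TRAF genes, Traf1, itself an induced target, was at -0.28 (SE 0.141). Traf3, which restrains the noncanonical branch, was at -0.19 (SE 0.0869), Traf2 at -0.15 and Traf6 at -0.13. The Traf1 groups overlapped through KO replicate 2, at 65.9 CPM against 60.3 CPM in WT replicate 2, and the value was -0.44 without the former library.

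Of the 7 induced surface molecules, 5 had negative and 2 had positive log2 fold changes. Vcam1, an adhesion molecule for leukocytes that carry the integrin VLA-4, measured 95.7, 62.5 and 72.8 CPM across WT and 39.5, 42.8 and 49.0 CPM across KO. The groups did not overlap, and KO replicate 2 was here as low as the other KO libraries. The KO mean was 56.8% of the WT mean, and the log2 fold change was -0.82 (SE 0.155), with an adjusted p of 0.694 by edgeR and 3.50e-04 by DESeq2. It stayed between -0.94 and -0.63 when each library was left out, and DESeq2 called it in all 6 of those fits. Icam1, the ligand of LFA-1, stood at 276, 167 and 184 CPM (WT) against 106, 159 and 139 CPM (KO) (log2 -0.63, SE 0.211). Its groups did not overlap, DESeq2 did not call it (adjusted p = 0.117), and the value was -0.38 without WT replicate 1. Both genes have exons that overlap an annotated gene on the opposite strand, and the strand setting of the counting is unknown here. Endothelial cells also express these 2 molecules. Endothelial markers, 7 genes, summed to 17.8 to 21.7 CPM in WT and 10.7 to 22.3 CPM in KO (exact permutation p = 0.9). Tek, Cldn5, Tie1 and Emcn were at or near 0 in every library, and 3 of the 7 had enough reads to be tested. All 3 had negative log2 fold changes, with a median of -0.12, and of -0.47 without KO replicate 1. At an unadjusted p under 0.05, 0 of the 3 were lower. Fibroblast markers, 7 genes, summed to 205 to 323 CPM in WT and 204 to 297 CPM in KO (exact permutation p = 0.9). Of the 6 tested, 5 had negative and 1 a positive log2 fold change, with a median of -0.06. The part of either marker list in the values of Vcam1 and Icam1 was not tested.

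Cd83, Ccrl2 and F3 were lower with DESeq2. Cd83, a marker of activated antigen-presenting cells, had 638, 515 and 492 CPM in the WT libraries, and 259, 381 and 396 CPM in the KO libraries (log2 -0.67, SE 0.169, DESeq2 adjusted p = 0.0118). Ccrl2, an atypical receptor that binds chemerin, registered 812, 524 and 554 CPM under WT versus 337, 462 and 359.8 CPM under KO (log2 -0.71, SE 0.186, DESeq2 adjusted p = 0.0118). F3, tissue factor, which starts blood coagulation, measured 37.6, 20.3 and 24.4 CPM across WT and 13.0, 15.6 and 15.7 CPM across KO (log2 -0.89, SE 0.217, DESeq2 adjusted p = 0.0118). In all 3 the KO libraries lay below every WT library, and in all 3 WT replicate 1 was the highest. The edgeR adjusted p was 0.701, 0.701 and 0.694. Without WT replicate 1 DESeq2 called none of the 3, at edgeR log2 fold changes of -0.54, -0.48 and -0.60. It also called none of the 3 without KO replicate 1, at edgeR log2 fold changes of -0.50, -0.62 and -0.81.

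Cd80 and Cd86, the costimulatory ligands of CD28, were higher in KO than in every WT library. Cd80 stood at 94.7, 122 and 122 CPM (WT) against 137, 135 and 142 CPM (KO), and WT replicate 1 was here the lowest library. This is a log2 fold change of 0.29 (SE 0.0986; edgeR adjusted p = 0.701) and of 0.18 to 0.35 without each library in turn. Cd86 had 214, 224 and 220 CPM in the WT libraries, and 229, 246 and 225 CPM in the KO libraries, so the groups were barely apart (log2 0.09, SE 0.0682). Neither passed with edgeR, DESeq2 or limma-voom. Of the 50 genes, these 2 (4%) had KO libraries above every WT library, where 6.11% of all tested genes did. A list of 10 dendritic cell markers (8 tested) summed to 102 to 129 CPM in WT and 103 to 134 CPM in KO (exact permutation p = 0.7). Of the 8, 3 had negative and 5 positive log2 fold changes, from -0.59 to 0.90, with a median of 0.10. The part of these markers in the values of Cd80 and Cd86 was not tested.

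**Figure D3:**
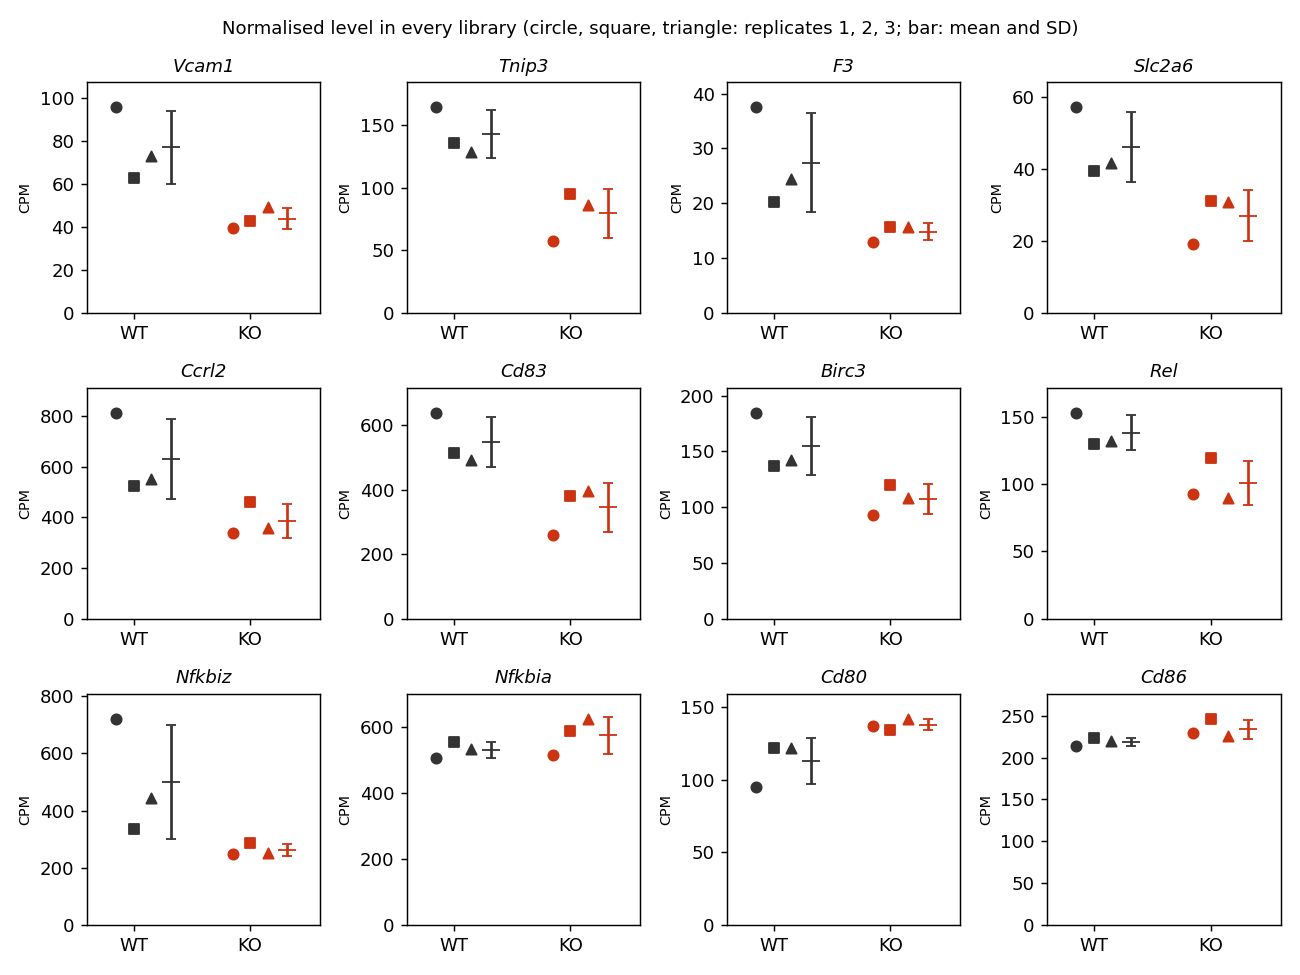
Each panel plots CPM (vertical axis, from 0) in the 3 WT and 3 KO libraries, with a bar for the mean and SD; circle, square and triangle are replicates 1, 2 and 3. The KO points lie below every WT point for the panels from Vcam1 to Nfkbiz, overlap for Nfkbia, and lie above every WT point for Cd80 and Cd86.

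The 3 other induced targets were all negative. Slc2a6, a hexose transporter of the GLUT family, registered 57.2, 39.4 and 41.6 CPM under WT versus 19.0, 31.2 and 31.0 CPM under KO. The groups did not overlap, and the KO mean was 58.8% of the WT mean (log2 -0.77, SE 0.213, edgeR adjusted p = 0.701, DESeq2 adjusted p = 0.0372). DESeq2 did not call Slc2a6 without WT replicate 1, WT replicate 3 or KO replicate 1. Sod2, the mitochondrial superoxide dismutase, measured 270.2, 190.4 and 212 CPM across WT and 144, 191 and 172 CPM across KO, overlapping through KO replicate 2 (log2 -0.41, SE 0.145). Its value was -0.25 without WT replicate 1 and -0.50 without KO replicate 2. Tnfaip2, an abundant protein induced by tumour necrosis factor, stood at 907, 826 and 802 CPM (WT) against 564, 843 and 711 CPM (KO). KO replicate 2 lay inside the WT range, and the log2 fold change of -0.26 (SE 0.133) was -0.12 without KO replicate 1 and -0.41 without KO replicate 2.

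The spread between libraries had a shape common to most of the set. WT replicate 1 was the highest of the 6 libraries in 34 of the 50 genes, against 21.7% of all tested genes. KO replicate 1 was the lowest in 32, against 20% of all tested genes. KO replicate 2 was the highest KO library in 41, against 39.4% of all tested genes. As the mean log2 CPM of the 50 genes, centred over the libraries, the values were 0.294, 0.014 and 0.083 in WT and -0.272, 0.033 and -0.152 in KO. WT replicate 2 and KO replicate 2 were thus close to each other on this scale, and the groups overlapped.

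Counts over the set moved with single libraries. The KO libraries all lay below the WT libraries in 11 of the 50 genes, where 6.3% of all tested genes did, and above them in 2, where 6.11% did. Without KO replicate 2 the lower count was 33 of 50, where 12.1% of all tested genes were lower in this way, and without WT replicate 2 it was 22, where 12.6% were. DESeq2 called 3 genes of the set lower without WT replicate 1, 12 without WT replicate 2 and 4 without WT replicate 3, where it called 0.119%, 0.522% and 0.116% of the genes it tested. It called 2 lower without KO replicate 1, 9 without KO replicate 2 and 5 without KO replicate 3, where it called 0.0897%, 0.278% and 0.248%. At an unadjusted p under 0.05 the edgeR count of 20 was 12, 24 and 15 without WT replicates 1, 2 and 3, where 1.56%, 3.36% and 2.01% of all tested genes were lower. It was 12, 25 and 9 without KO replicates 1, 2 and 3, where 2.06%, 3.45% and 4.96% were. The median log2 fold change of the set stayed negative in each of these edgeR fits, from -0.28 to -0.12. Without KO replicate 2, 7 of the 50 values were positive instead of 13, as Chuk, Map3k14, Ripk1, Ripk2, Tnip2 and Tnfrsf1a turned negative. Vcam1 and Tnip3 were the 2 genes that DESeq2 called in every fit.

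Other measurements differed between the libraries as well. A list of 19 immediate early genes, which respond quickly to handling and digestion of tissue, had positive log2 fold changes in 19 of 19 genes with a median of 0.27. Of these, 9 were higher at an unadjusted p under 0.05, where 3.86% of all tested genes were. In 8 the KO libraries lay above every WT library, where 6.11% of all tested genes did. DESeq2 called 2 higher, where it called 0.07% of the genes it tested. The sums of the 19 genes were 10957, 14694 and 12769 CPM in WT and 14577, 16855 and 14991 CPM in KO (exact permutation p = 0.2). WT replicate 1, highest for most NF-kappaB genes, was thus lowest here. T and NK cell markers (13 genes, 12 tested) summed to 19.9 to 29.2 CPM in WT and to 20.2, 57.4 and 26.7 CPM in KO. Neutrophil markers (10 genes, 6 tested) summed to 54.7 to 72.0 CPM in WT and to 56.6, 101 and 67.6 CPM in KO (exact permutation p = 0.6 for both lists). Of the tested genes, 11 of 12 T and NK cell markers were positive with a median log2 fold change of 0.40, and 2 of them had an unadjusted p under 0.05, both higher. Of the neutrophil markers, 5 of 6 were positive with a median of 0.62, 3 were higher at that threshold and 2 had KO libraries above every WT library. The shares of all tested genes given above, 3.86% and 6.11%, apply to both lists. KO replicate 2 was highest in both sums, while Ly6g and Camp were at or near 0 in every library. The part of these genes in the results above was not tested.

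**Figure D4:**
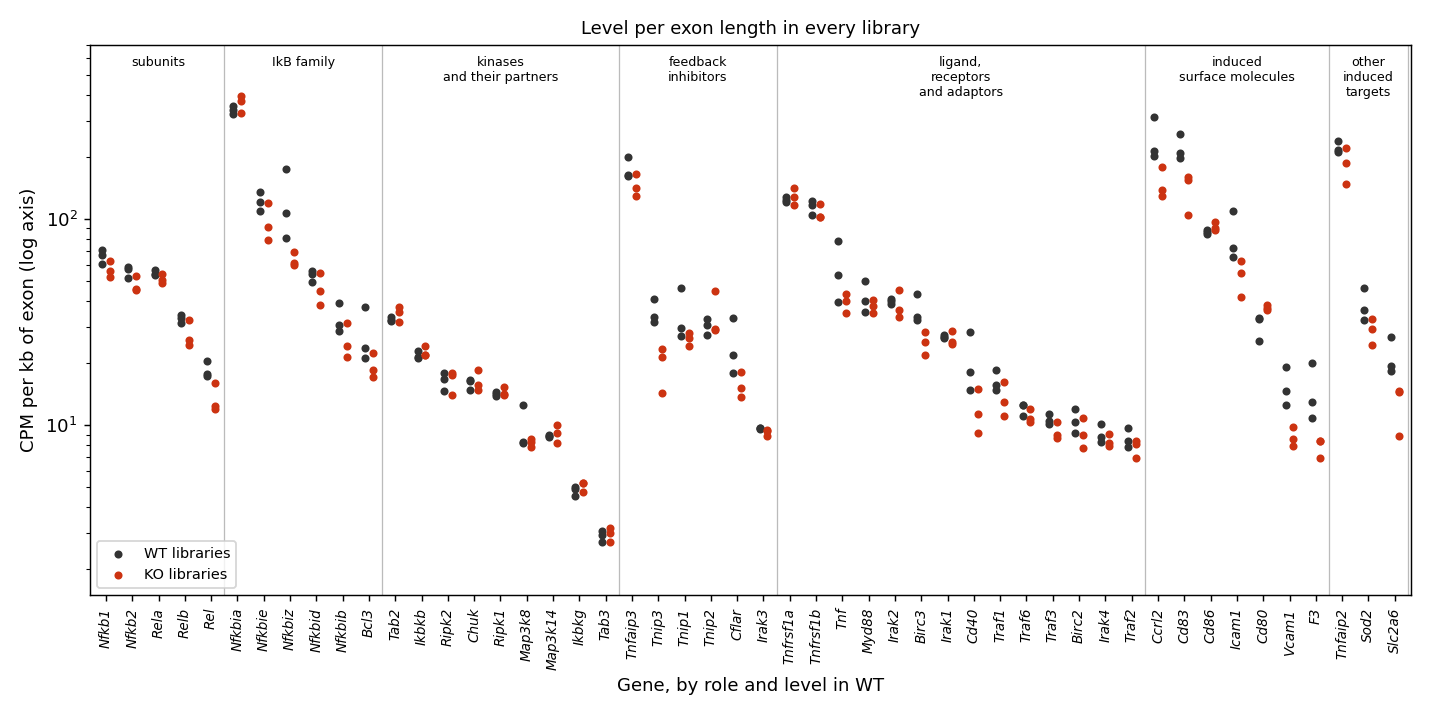
Points are single libraries, WT in black and KO in red, for the 50 genes by role (horizontal axis); the vertical log axis is CPM per kilobase of exon. In WT, Nfkbia is highest, with a mean of 337 CPM per kilobase, and Tab3 lowest, with 2.91.

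Other genes of the pathway were read from 2 further lists. Of 46 other signalling genes, 27 were negative and 19 positive with a median log2 fold change of -0.03. At an unadjusted p under 0.05, 1 was lower and 2 higher, where 3.06% and 3.86% of all tested genes were. The 4 with the smallest p were Tifa, an adaptor that oligomerises TRAF6 (-0.42, SE 0.143), Nkiras2, a small GTPase-like inhibitor of IkB degradation (0.21, SE 0.0747), Sharpin, a subunit of the linear ubiquitin ligase (0.19, SE 0.0789), and N4bp1, an RNase-like regulator (-0.26, SE 0.122). Of 42 tested other induced targets, 33 were negative and 9 positive with a median of -0.30. At an unadjusted p under 0.05, 18 were lower and 4 higher, where 3.06% and 3.86% of all tested genes were. The log2 fold changes of these targets ran from -2.4 to 1.1. Zc3h12a, which encodes the RNase regnase-1, led this list with means of 284 ± 36.9 (WT) and 192 ± 12.3 CPM (KO) (SD, n = 3 each; log2 -0.56, edgeR adjusted p = 0.438). It was followed by the chemokine Cxcl1 (-0.84), the inflammasome sensor Nlrp3 (-0.42) and the cytokine Il1a (-0.63). DESeq2 called 5 of these targets lower and 0 higher, and 0 of the signalling genes. Of all genes it tested, it called 0.184% lower and 0.07% higher. EdgeR called 0 genes of either list.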

How the data were processed

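The authors deposited raw read counts per gene for 6 libraries, whole numbers with no normalization. Per the submitters' processing notes the tools were Trimmomatic, HISAT2, Cufflinks and HTSeq with the mm10 build, no version or role being listed, and a stranded mRNA kit was used per the labels' protocols. The annotation and the strand setting of the counting are not given in the sources used here, and 10 of the 50 genes have exons that overlap a gene on the opposite strand (Nfkb2, Nfkbib, Bcl3, Ripk1, Irak3, Irak2, Irak4, Icam1, Vcam1 and Tnfaip2), so their counts are uncertain.

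The edgeR function filterByExpr (at a minimum count of 10 and a total of 15) kept 12136 genes holding 99.962% of the reads. KO was compared with WT in edgeR 4.0.16 (R 4.3.3) with TMM factors and a robust quasi-likelihood fit with genotype as the only term, and p-values were adjusted by Benjamini-Hochberg over all tested genes with a threshold of 0.05. Standard errors are the log2 fold change over the root of its F statistic. CPM are counts scaled by the TMM-adjusted library total, and CPM per kilobase divide by the exon length in GENCODE M21 (GRCm38), which may differ from the authors' gene models. DESeq2 1.42.0 and limma-voom (limma 3.58.1) were alternatives, with other scalings, filters, the replicate number as a block, and each library left out. The edgeR, DESeq2 and limma-voom fits of all libraries at their main settings were tested on simulated data. The fits with other settings, the replicate block or a library left out were not. Sums of CPM were compared with exact permutation, two-sided, where 3 against 3 libraries cannot give a p below 0.1.

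The genes and lists were chosen with earlier results of these data known, so no p is given for the set or adjusted over a list; the p-values of marker lists compare their summed CPM between libraries. Values in every library are given for genes called by any tool and for the 3 with the smallest p in each role; further genes were added after their values were seen. From the other pathway lists the 4 with the smallest p are named.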

Additional observations from a re-analysis of the deposited data

How the results depend on the processing

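No gene of the set was called by edgeR under any scaling, filter or left-out library, or by limma-voom, and DESeq2 called 7 lower. Over all tested genes, the 2 lower calls of edgeR became 1 with RLE factors, upper-quartile factors, library totals alone, no filter, limma-voom or the replicate block, 0 with at least 1 CPM in 3 libraries, and 21 with DESeq2, which also called 8 higher. When each library was left out, edgeR called 0 to 2 genes lower and 0 to 3 higher. Members lower at an unadjusted p under 0.05 numbered 9 to 25 and members higher 1 to 2. Members whose libraries did not overlap numbered 11 to 33 lower and 2 to 5 higher, while 9.2% to 15.7% and 9.3% to 16.2% of all tested genes did not overlap in those directions. The 5 higher members came without KO replicate 1, at a background of 10.2%, and 11 were lower without KO replicate 3, at a background of 15.7%. DESeq2 fits without a library called 2 to 12 members lower. The alternatives to the counts at an unadjusted p, and the DESeq2 fits without a library, were chosen after seeing the data. The cause of these changes was not tested, and each fit without a library also had fewer libraries.

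The replicate block brought the 20 members lower at an unadjusted p under 0.05 to 11 and moved no other count of members. The share of all tested genes at that threshold is not given for the block fit. Whether the drop was particular to the set can therefore not be told. The labels do not say whether equal replicate numbers share a mouse, day or batch. Deviations of equally numbered libraries from their group means correlated at -0.0574, -0.0941 and -0.109. With group means of only 3 libraries, these values cannot decide whether the libraries were paired. Of 330 alternative values for the 22 genes named by the rule (called by any tool, or among the 3 smallest p of a role), 323 kept their side of the threshold and 7 passed it, all with DESeq2, and 0 changed sign. None of the 22 passed in the main edgeR fit, so keeping their side says little about stability. Single left-out libraries moved the log2 fold changes of many by over 1.5 times. These were Relb, Nfkbie, Nfkbiz, Bcl3, Ikbkg, Map3k8, Tab2, Tnfaip3, Cflar, Tnf, Cd40, Sod2 and Tnfaip2. Outside these 22, the sign turned in Tnip2, Chuk, Map3k14, Ripk1, Ripk2 and Tnfrsf1a without KO replicate 2, in Chuk, Ripk2 and Myd88 without WT replicate 1, in Tab3 without WT replicate 2, in Irak1 without KO replicate 1, and in Tab3, Ripk2 and Irak2 without KO replicate 3. With 3 libraries in each group, differences as small as those of the kinases lay within the spread.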
